A study of Mus musculus with 6 samples.

Results

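Mitochondrial carriers of the SLC25 family, with the uncoupling proteins that belong to it, were followed in liver taken at postnatal day 14 from mice of the genotypes Mir137-/- and Mir137+/+. All 46 genes were taken whose symbol starts with Slc25a or Ucp and a number and that had a probe set annotated to that symbol alone, out of 18193 genes with a probe set of exactly 1 symbol. Members were taken by gene name alone, but the list was chosen with earlier results of these data known. The probe set read for each gene was that with the highest mean over all 6 arrays. Liver RNA was hybridised to 6 Affymetrix whole-genome mouse arrays. There were 3 arrays for Mir137-/- and 3 for Mir137+/+, each labelled as a biological replicate, and the methods describe RNA from individual livers. Both groups were untreated, came from matings of heterozygous mice and were described as male. Some Mir137+/+ arrays go against that description, as given below. The Mir137-/- mice lacked the floxed Mir137 segment in the germline after Cre recombination in embryonic stem cells. The deletion thus covered every tissue and not the liver alone. The array had no probe set for Mir137 itself, so its loss was not analysed here.

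The SLC25 proteins span the inner mitochondrial membrane and exchange nucleotides, phosphate, keto acids, amino acids, acylcarnitines and cofactors between cytosol and matrix. A few members act in the peroxisomal or outer mitochondrial membrane. In hepatocytes they feed ureagenesis, gluconeogenesis, lipogenesis, fatty acid oxidation and ATP export. The uncoupling proteins belong to the same family, and Ucp1 is the thermogenic proton carrier of brown fat. MicroRNAs bind messenger RNAs through their seed, and bases 2 to 8 of the deleted microRNA, taken from RefSeq (GRCm38.p6, chr3:118433901-118433923, plus strand), are given in capitals to show what the knockout mice lacked.
mmu-miR-137-3p: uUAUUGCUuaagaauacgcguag

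Some arrays stood apart for reasons other than genotype labels. Hepatocyte genes were bright on every array, and the median level of 9 measured markers was 12.95 to 13.12 in Mir137-/- and 13.13 to 13.17 in Mir137+/+. Xist, the female-specific non-coding RNA, was at 3.66 to 4.24 on the Mir137-/- arrays but at 10.91 and 10.81 on Mir137+/+ replicates 2 and 3, against 3.94 on replicate 1. The Y-linked Eif2s3y was at 2.06 and 2.51 on those Mir137+/+ arrays, against 8.59 on replicate 1 and 8.46 to 8.62 in Mir137-/-. These values go against the description of all mice as male. Skeletal muscle transcripts marked Mir137-/- replicate 1, where the median of 14 markers was 7.61 (Acta1 11.38, Pvalb 7.87), whereas it was 3.86 to 4.09 on the other 5 arrays. Transcripts of exocrine pancreas marked Mir137-/- replicate 2 and Mir137+/+ replicate 2, with medians over 10 markers of 8.76 and 7.78, against 4.28 to 4.39 elsewhere (Cela1 was 8.40 and 8.49, and Cela3b 9.02 and 7.71, on those arrays). The median of 8 neutrophil markers was 5.82 to 6.35 in Mir137-/- and 7.15 to 7.67 in Mir137+/+, with S100a8 lower by a log2 difference of -1.57 and S100a9 by -1.71. Macrophage and Kupffer cell markers had medians of 9.76 to 9.82 in Mir137-/- and 9.65 to 9.81 in Mir137+/+ (11 markers, among them Cd5l, 0.33, and Csf1r, 0.04), and erythroid markers 4.14 to 4.63 in Mir137-/- and 4.20 to 4.50 in Mir137+/+ (9 markers, among them Alas2, 0.04, and Klf1, -0.07). Of the erythroid markers Hemgn was called lower (-0.75, adjusted p = 0.0219), while Slc4a1 (-0.34) and Rhag (-0.33) did not pass. Hemgn was dim, at 2.11 to 2.59 in Mir137-/- and 2.84 to 3.29 in Mir137+/+, below the lower quartile of all values (3.44).

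In Mir137-/- livers, 5 of the 46 carriers passed the test (10.9%, against 5.67% of all genes). The carriers were brighter than genes at large, with a median level of 7.50 against 5.94. Without the dimmest 40% of genes, the same 5 of 36 members were called, beside 371 higher and 515 lower of 10917 genes. Slc25a25, an ATP-Mg and phosphate carrier, Slc25a4, an ADP and ATP translocase, and Slc25a33, a pyrimidine nucleotide carrier, rose by 0.60 to 0.74 on the log2 scale (3 genes, while 2.34% of all genes were called higher). Slc25a44, the carrier of branched-chain amino acids, and Slc25a45, a less studied member of the family, fell by 0.74 and 0.70 (2 genes, while 3.34% of all genes were called lower). To be called, a gene needed a limma p that stayed below 0.05 after Benjamini-Hochberg adjustment over all 18193 genes, and a change of more than 1.5-fold, which is 0.585 in log2 units. In bulk tissue, fewer cells of a type and less RNA per cell cannot be told apart. The neutrophil markers differed with genotype as given above, and their part in these results was not tested. Sex was also uneven, since every array with high Xist was Mir137+/+, so sex and genotype are partly confounded in these calls. Differences of the family centred near 0: 23 members had a positive and 23 a negative difference, with a median of 0.005 beside 0.0033 for all genes, and the median absolute difference was 0.13 beside 0.15.

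**Figure D1:**
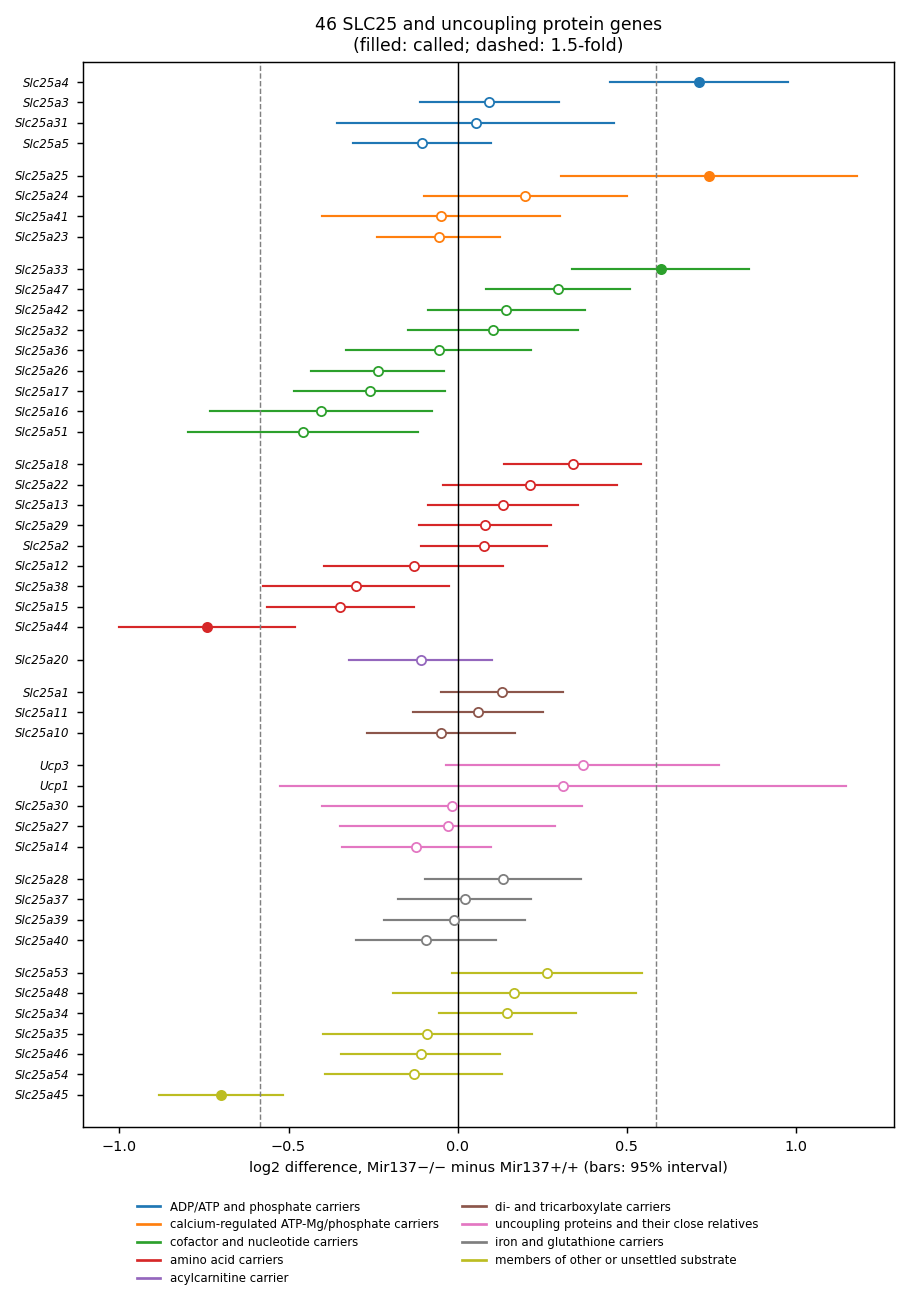
Log2 difference between Mir137-/- and Mir137+/+ livers (x axis) for each of the 46 SLC25 and uncoupling protein genes (y axis), grouped and coloured by transported substrate. Circles are the moderated estimates, bars their 95% intervals and dashed lines 1.5-fold. The 5 filled circles are the called genes, and 28 of the 46 circles lie within 0.2 of 0.

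ADP and ATP cross the inner membrane through the adenine nucleotide translocases, of which Slc25a4 is the form typical of heart and skeletal muscle and Slc25a5 the form of most other tissues. Slc25a4 was at 10.79, 10.54 and 10.39 on the Mir137-/- arrays and at 9.82, 9.88 and 9.88 on the Mir137+/+ arrays. All 3 Mir137-/- values lay above all 3 Mir137+/+ values, and the difference was 0.71 ± 0.11 (SE, adjusted p = 0.00735). Slc25a5 was at 11.88, 11.99 and 11.80 in Mir137-/- and at 12.00, 11.94 and 12.05 in Mir137+/+, a difference of -0.11 (95% interval -0.31 to 0.10). The groups overlapped for Slc25a5. The phosphate carrier Slc25a3 (0.09) and the germ cell translocase Slc25a31 (0.05, at the dim end of the array) did not pass the test. The array with muscle transcripts, Mir137-/- replicate 1, had the highest Slc25a4 value. Without it the difference was 0.605 (adjusted p = 0.0149) and the gene was still called. The call was lost with a sex term taken from Xist (0.75, adjusted p = 0.0828), without the pancreas arrays (0.74, 0.0758), with averaged probe sets (0.57, under 1.5-fold) and with the methods' t-test after adjustment (0.0583).

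The log2 ratio of Slc25a4 to Slc25a5 signal, which holds the affinities of both probe sets and is read here only as a difference between genotypes, was -1.32 ± 0.20 on the Mir137-/- arrays and -2.14 ± 0.07 on the Mir137+/+ arrays (SD, n = 3 each). It was higher by 0.82 in Mir137-/-, with groups that did not overlap. The exact two-sided permutation p was 0.1, the smallest that 3 against 3 arrays allow, and 0.133 after adjustment over the 4 carrier pairs compared. These pairs were chosen after the values were seen. Each sets a called gene over a relative that was not called, so the ratios reuse the called values and are not separate evidence. Slc25a25 over its relative Slc25a23 (0.80) and Slc25a33 over the other pyrimidine nucleotide carrier Slc25a36 (0.66) also had separate groups (exact p = 0.1 each), while Slc25a25 over Slc25a24 did not (0.54, exact p = 0.2).

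Calcium-regulated carriers exchange ATP-Mg for phosphate and set the adenine nucleotide content of the matrix. Slc25a25, also called SCaMC-2, was at 9.45, 10.15 and 9.83 in Mir137-/- and at 9.17, 8.80 and 9.23 in Mir137+/+. The groups did not overlap, but the lowest Mir137-/- value was 9.45 and the highest Mir137+/+ value 9.23. The difference was 0.74 ± 0.19 (SE, adjusted p = 0.0418), with a 95% interval from 0.31 to 1.18. This call was the least firm of the 5. It held without Mir137-/- replicate 1 (0.92, adjusted p = 0.0201) and was lost without each of the other arrays: without Mir137-/- replicate 2 (0.57, adjusted p = 0.0947) or 3 (0.73, 0.09), and without Mir137+/+ replicate 1 (0.795, 0.0879), 2 (0.61, 0.134) or 3 (0.825, 0.0804). Mir137-/- replicate 2 and Mir137+/+ replicate 2, which carry pancreas transcripts, were the highest and the lowest arrays for this gene. Without both, the difference was 0.44 (adjusted p = 0.197). Slc25a24 (0.20), Slc25a23 (-0.06) and Slc25a41 (-0.05) of the same group did not pass.

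Slc25a33 brings pyrimidine nucleotides into the matrix, where they serve mitochondrial DNA and RNA synthesis. It was at 9.16, 9.53 and 9.37 in Mir137-/- and at 8.71, 8.85 and 8.70 in Mir137+/+. Every Mir137-/- value lay above every Mir137+/+ value, and the difference of 0.60 ± 0.11 (SE, adjusted p = 0.0145) was just above the fold threshold. Leaving out Mir137-/- replicate 2 (0.51, adjusted p = 0.0365), Mir137+/+ replicate 1 (0.58, 0.0557) or Mir137+/+ replicate 3 (0.57, 0.0612) ended the call. The call was also lost with a sex term taken from Xist (0.64) and without the pancreas arrays (0.56, adjusted p = 0.0747). Array weights (0.57, under 1.5-fold) and the methods' t-test after adjustment (0.0753) ended it as well.

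**Figure D2:**
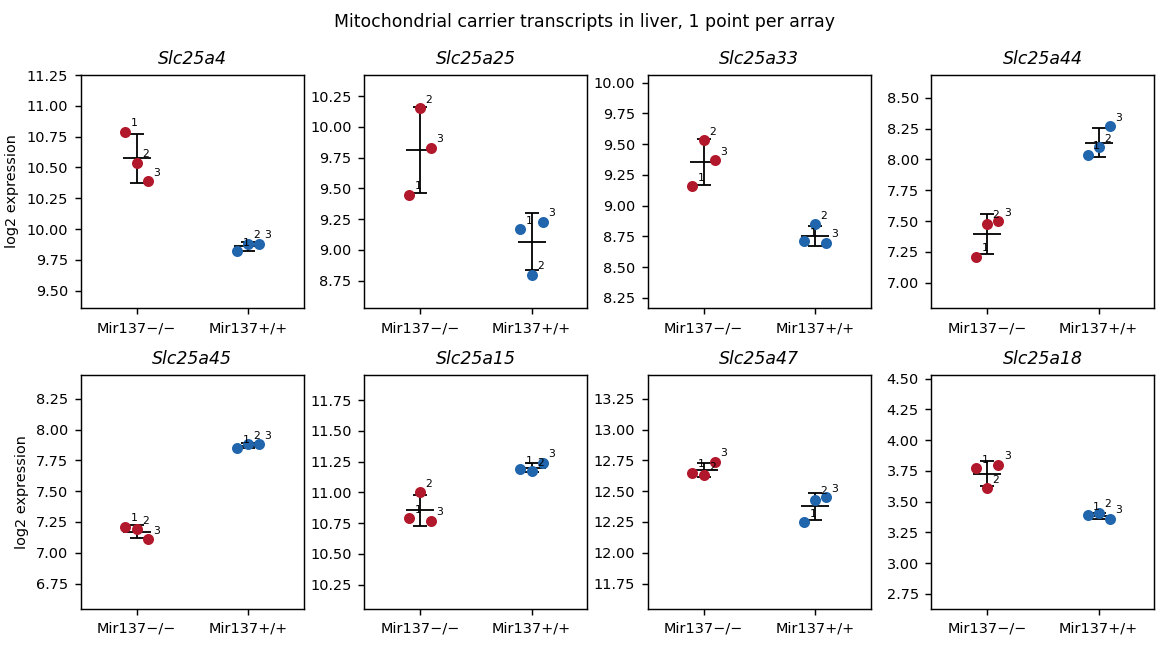
Log2 expression (y axis) of 8 mitochondrial carriers on each array, with Mir137-/- at the left and Mir137+/+ at the right of each panel and replicate numbers beside the points. Bars are the mean ± SD of 3 arrays, and every panel spans the same log2 range. Mir137-/- and Mir137+/+ points are separate in all 8 panels, which follows from the choice of genes shown. Of all 46 members 30.4% had separate groups, against 32.3% of all genes.

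Amino acid carriers were mixed in direction, with 1 of 9 called (5.67% of all genes were called). Slc25a44 was at 7.21, 7.48 and 7.50 in Mir137-/- and at 8.04, 8.10 and 8.27 in Mir137+/+. The groups were separate by more than the range within either, and the difference was -0.74 ± 0.11 (SE, adjusted p = 0.00601). It stayed called in all 6 fits that left out 1 array (-0.79 to -0.65). The call was lost with a sex term taken from Xist (-0.64, adjusted p = 0.109), without the pancreas arrays (-0.80, 0.0598), with averaged probe sets (-0.58, under 1.5-fold) and with the methods' t-test after adjustment (0.0542). The gene lies at chr3:88410494-88425141 (GRCm38), on the chromosome that also holds Mir137. The other 3 members on chromosome 3 did not pass: Slc25a24 (0.20), Slc25a31 (0.05) and Slc25a54 (-0.13).

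Slc25a15 exchanges cytosolic ornithine for matrix citrulline in the urea cycle. It was at 10.79, 11.00 and 10.77 in Mir137-/- and at 11.19, 11.17 and 11.24 in Mir137+/+. The groups did not overlap, but the difference of -0.35 ± 0.09 (SE) missed the threshold by a little (adjusted p = 0.0507) and was smaller than 1.5-fold. Slc25a13 (citrin), the aspartate and glutamate exchanger of liver, was at 10.89, 10.78 and 10.83 in Mir137-/- and at 10.85, 10.61 and 10.64 in Mir137+/+. Its groups overlapped (0.13, adjusted p = 0.43). Slc25a18, a mitochondrial glutamate carrier, was at 3.77, 3.61 and 3.80 in Mir137-/- and at 3.39, 3.41 and 3.36 in Mir137+/+. It was the 1 member that passed the adjusted p (0.0428) below the fold threshold (0.34 ± 0.09, SE), at a signal below the median of the array. With it, 6 members passed the adjusted p whatever their fold, against 12.0% of all genes (4 higher, against 5.06%, and 2 lower, against 6.90%). The other members, the aspartate and glutamate carrier Slc25a12 (-0.13), the glutamate carrier Slc25a22 (0.21), the basic amino acid carriers Slc25a29 (0.08) and Slc25a2 (0.08) and the glycine carrier Slc25a38 (-0.30), did not pass.

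Slc25a45 was the most precisely measured of the called carriers. It was at 7.21, 7.19 and 7.11 in Mir137-/- and at 7.85, 7.88 and 7.88 in Mir137+/+. The spread within each group was far smaller than the gap between them, and the difference was -0.70 ± 0.08 (SE, adjusted p = 0.00184). The call held in all 6 fits without 1 array (-0.72 to -0.67). Among the other members of unsettled or other substrate were Slc25a53 (0.26), the choline-linked Slc25a48 (0.17), Slc25a34 (0.15), Slc25a54 (-0.13), Slc25a46 (-0.11), which acts in mitochondrial dynamics, and Slc25a35 (-0.09). None of these 6 passed.

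Cofactor carriers supply the matrix or the peroxisome with coenzyme A, NAD, folate and S-adenosylmethionine, and 1 of 9 was called, against 5.67% of all genes (Slc25a33, which was grouped with them for its nucleotides). Slc25a47, a carrier expressed mainly in liver, was at 12.65, 12.63 and 12.74 in Mir137-/- and at 12.25, 12.43 and 12.45 in Mir137+/+. The groups were separate, and the difference of 0.30 ± 0.09 (SE, adjusted p = 0.0768) did not pass. Slc25a51, which imports NAD and is named after its values were seen, was at 8.97, 9.53 and 9.18 in Mir137-/- and at 9.81, 9.58 and 9.66 in Mir137+/+ (-0.46, adjusted p = 0.0875). Its Mir137-/- replicate 2 lay next to the Mir137+/+ arrays, and without that array the gene was called lower (-0.61, adjusted p = 0.0268). That was the 1 call among the 6 limma fits without 1 array, where the adjusted p reached 0.226, and among 21 alternative settings. Slc25a16, linked to coenzyme A (-0.40), Slc25a17, the peroxisomal cofactor carrier (-0.26), and Slc25a26, which carries S-adenosylmethionine (-0.24), had negative differences that did not pass. Slc25a42 for coenzyme A (0.14), Slc25a32 for folate or FAD (0.10) and Slc25a36 (-0.06) did not pass either.

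Carriers of carboxylates and acylcarnitines, which serve lipogenesis, gluconeogenesis and fatty acid oxidation, showed no called gene. The citrate carrier Slc25a1 was at 9.34, 9.26 and 9.30 in Mir137-/- and at 9.16, 9.16 and 9.19 in Mir137+/+. Its groups were separate at a small difference (0.13, 95% interval -0.05 to 0.31, adjusted p = 0.339). The dicarboxylate carrier Slc25a10 was at 9.46, 9.57 and 9.45 in Mir137-/- and at 9.68, 9.47 and 9.48 in Mir137+/+ (-0.05, 95% interval -0.27 to 0.17), and the oxoglutarate carrier Slc25a11 had a difference of 0.06. Slc25a20, the carnitine and acylcarnitine exchanger, was at 10.45, 10.58 and 10.51 in Mir137-/- and at 10.51, 10.71 and 10.65 in Mir137+/+ (-0.11, 95% interval -0.32 to 0.10). For Slc25a10 and Slc25a20 the groups overlapped, and all of these intervals lay within 1.5-fold, as they did for 37 of the 46 members.

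The measured uncoupling proteins, Ucp1 and Ucp3, were dim in liver, and Ucp2 had no probe set under its symbol alone. Ucp1 was at 4.86, 3.73 and 3.42 in Mir137-/- and at 3.66, 3.31 and 4.11 in Mir137+/+ (0.31, adjusted p = 0.645). The groups overlapped, and 1 array decided the sign: without Mir137-/- replicate 1 the difference was -0.12. On that array the 7 measured brown fat markers had a median of 5.28, against 4.17 to 4.77 on the other Mir137-/- arrays and 4.22 to 4.82 in Mir137+/+, with Cox8b at 8.23, Cox7a1 at 7.14 and Cidea at 5.28. Other markers of that list did not set this array apart: Fabp4 was 9.57 on both this array and Mir137-/- replicate 2, and Dio2 (5.04) and Zic1 (2.19) were within the range of Mir137+/+. Ucp3, the muscle form, was at 5.31, 4.58 and 5.07 in Mir137-/- and at 4.69, 4.63 and 4.53 in Mir137+/+ (0.37, adjusted p = 0.224). It was also highest on Mir137-/- replicate 1 and its groups overlapped, and without that array the difference was 0.21. That array also carried the skeletal muscle transcripts given above (median 7.61). What part transcripts of other tissues have in these values, or in the brown fat list, was not tested. The relatives Slc25a14 (-0.12), Slc25a27 (-0.03) and Slc25a30 (-0.02) did not pass.

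Mitoferrins import iron for haem and iron-sulphur clusters, and Slc25a39 and Slc25a40 import glutathione. The mitoferrins Slc25a28 (0.13) and Slc25a37 (0.02) and the glutathione carriers Slc25a39 (-0.01) and Slc25a40 (-0.09) did not pass. Of the 46 members, 14 had groups that did not overlap (30.4%), 7 higher and 7 lower in Mir137-/-. Among all genes 32.3% had separate groups, so the share in the family was near that background. Differences of the 41 members not called ran from -0.46 to 0.37.

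Probe sets of one gene did not always move together. The 46 genes had 96 probe sets, of which 9 were called (9.38%, against 4.52% of all 45037 probe sets). For Slc25a4, 3 of 4 probe sets were called, at 0.71, 0.74 and 0.68, and the fourth was dim (0.15). For Slc25a44, 2 of 3 were called (-0.74 and -0.90) and the dimmest was not (-0.09). Slc25a25 was called by its brightest probe set alone, and its others gave 0.37 and 0.16. Slc25a33 and Slc25a45 had 1 probe set each, so no second probe set bears on them. For Slc25a51 all 3 were negative (-0.46, -0.74 and -0.35) and the middle one was called (adjusted p = 0.0353 over all probe sets).

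The remaining spread lay in single probe sets. Of the 8 probe sets of Slc25a5, 6 differed by -0.11 to 0.04. The remaining pair gave -0.58 and -0.74. One of them was at 7.91, 8.07 and 9.10 in Mir137-/- and at 8.95, 8.97 and 8.90 in Mir137+/+, and the other at 7.51, 8.03 and 8.90 in Mir137-/- and at 8.80, 8.96 and 8.91 in Mir137+/+. They were low on Mir137-/- replicates 1 and 2 only, and neither was called. For Slc25a32, the dimmest of 3 probe sets gave -0.62 (adjusted p = 0.0689), while the brighter ones gave 0.10 and -0.07.

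**Figure D3:**
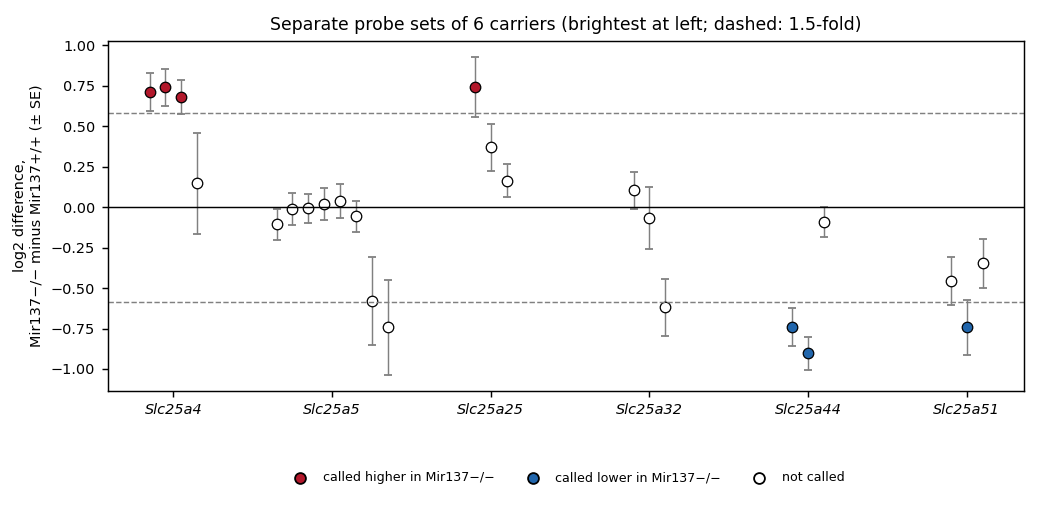
Log2 difference between Mir137-/- and Mir137+/+ livers (y axis, bars are the SE) for every probe set of 6 carriers (x axis), brightest at the left. Filled points are called probe sets and dashed lines mark 1.5-fold. The 3 brightest probe sets of Slc25a4, 2 of Slc25a44, the brightest of Slc25a25 and the middle one of Slc25a51 are filled. The 2 dimmest of Slc25a5 lie at -0.58 and -0.74.

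Carriers work with enzymes on both sides of the membrane, so 84 measured genes of 7 partner lists were read beside them, and 3 of these were called higher and 4 lower (8.33% in either direction, against 5.67% of all genes, 2.34% higher and 3.34% lower). In the carnitine shuttle 2 of 6 genes rose (2.34% of all genes did), Crat (carnitine acetyltransferase, 0.91, adjusted p = 0.00154) and Slc22a5 (the plasma membrane carnitine transporter, 0.68, adjusted p = 0.0121), and none fell. Crat was at 8.57, 8.61 and 8.45 in Mir137-/- and at 7.51, 7.74 and 7.66 in Mir137+/+. All 6 genes of the list had positive differences (median 0.28, against 0.00 for all genes), with the bright Crot, the peroxisomal octanoyltransferase, at 0.01. The Slc22a5 call was lost without Mir137-/- replicate 2 (0.56, adjusted p = 0.023), Mir137+/+ replicate 2 (0.66, 0.0508) or Mir137+/+ replicate 3 (0.64, 0.0526), with a sex term (0.56, 0.177) and without the pancreas arrays (0.54, 0.0821). Slc25a20, the membrane step of the same shuttle, had a difference of -0.11 and did not pass.

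Urea cycle and glutamate enzymes had negative differences in 8 of 9 genes (median -0.30), beside 8918 of all 18193 genes (median 0.0033). Among them Ass1 (-0.13), Glud1 (-0.10) and Glul (-0.09), named after their values were seen, had small differences that did not pass. Ass1 was the dimmest of the list and uneven, at 6.32, 7.93 and 7.01 in Mir137-/-. In this list 11.1% of genes were called, against 5.67% of all genes. Asl, argininosuccinate lyase, fell to 10.66, 10.88 and 10.51 in Mir137-/-, against 11.33, 11.37 and 11.49 in Mir137+/+ (-0.71, adjusted p = 0.00726), and was the 1 called gene, although not with a sex term (-0.65, adjusted p = 0.117). Arg1 (-0.57, adjusted p = 0.0114) and Otc (-0.32, adjusted p = 0.0387) passed the adjusted p below the fold threshold and are named after their values were seen. Cps1, the first enzyme of the cycle, had a difference of -0.30 that did not pass. Slc25a15, the ornithine and citrulline exchanger of the cycle, differed by -0.35.

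Nampt, the rate-limiting enzyme of NAD salvage, fell to 8.01, 7.91 and 8.14 in Mir137-/-, against 9.12, 9.03 and 8.95 in Mir137+/+ (-1.01, adjusted p = 0.00107). In the same list of coenzyme and one-carbon genes, Shmt2, the mitochondrial serine hydroxymethyltransferase, fell (-0.60, adjusted p = 0.00504), and Mthfd1l, the mitochondrial formate synthetase, rose (0.82, adjusted p = 0.00561). The other 9 of 12 genes did not pass, among them Pank1 (-0.17), a pantothenate kinase. In this list 25% of genes were called, against 5.67% of all genes. The Shmt2 probe set was of a type that can cross-hybridise. Shmt2 was not called without such probe sets (-0.39, adjusted p = 0.0671), with averaged probe sets (-0.43), with quantile normalization (-0.57) or without Mir137+/+ replicate 1 (-0.545), and Mthfd1l was not called with a sex term (0.85, 0.0743) or without the pancreas arrays (0.67, 0.06). Of 17 other carriers and channels of the mitochondrial membranes, 1 fell, Sfxn5 of the sideroflexin family (-0.89, adjusted p = 0.0036). That is 5.88% called, near the 5.67% of all genes. Sfxn5 was under 1.5-fold with averaged probe sets (-0.57) and not called with a sex term (-0.85, adjusted p = 0.0713). The pyruvate carrier subunit Mpc1 had a difference of 0.14. No gene was called among 10 genes of the malate-aspartate shuttle and citrate export (Got2, 0.12), 11 of haem and iron-sulphur synthesis (Glrx5, -0.20) and 19 general mitochondrial genes (Cox4i1, 0.08). Acly, ATP citrate lyase, of the citrate export list (-0.58, adjusted p = 0.0155), and Uros (-0.48, 0.0217) and Fech (0.39, 0.0289) of haem synthesis passed the adjusted p below the fold threshold, as did Sfxn3 (0.43, 0.0198) and Sfxn4 (0.42, 0.0387) among the other carriers. These 5 genes are named after their values were seen. In the general mitochondrial list the median was -0.01 and none passed the adjusted p.

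**Figure D4:**
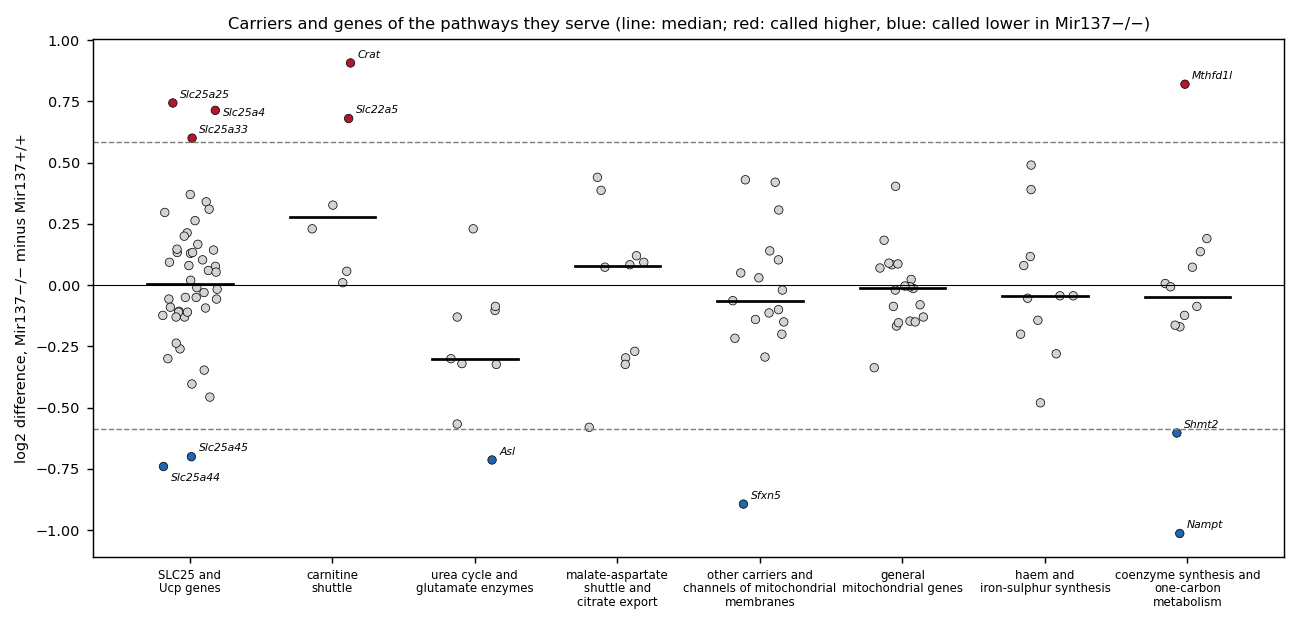
Log2 difference between Mir137-/- and Mir137+/+ livers (y axis) for the 46 carriers and for 84 genes of 7 lists of partner pathways (x axis), 1 point per gene, with list medians as black lines and 1.5-fold as dashed lines. Red points were called higher and blue points lower in Mir137-/-. The carriers centre on 0.005, and the urea cycle list on -0.30.

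RefSeq promoter windows (GRCm38.p6) were read for 4 of the 5 called carriers, since these are members that moved, and none was read for Slc25a44. The 250 bases before the annotated start were searched on both strands for the full cyclic AMP response element (CRE, TGACGTCA), its half-site (CGTCA, which lies within the full element), the GC box (GGGCGG), the E-box (CACGTG), the CCAAT box (CCAAT), the TATA box (TATAAA), the NRF-1 site (GCGCA joined to TGCGC), the ERR site (TCAAGGTCA), the DR1 element (AGGTCA, any base, AGGTCA) and the glucocorticoid response element (GNACA, any 3 bases, TGTNC). Matches are in capitals below, and each sequence runs 5′ to 3′ in the direction of the gene up to the base before the start. Slc25a25 has 3 annotated starts, and the window with the full CRE is shown, a choice made after the search.
Slc25a4 (chr8:46211063-46211312, minus strand): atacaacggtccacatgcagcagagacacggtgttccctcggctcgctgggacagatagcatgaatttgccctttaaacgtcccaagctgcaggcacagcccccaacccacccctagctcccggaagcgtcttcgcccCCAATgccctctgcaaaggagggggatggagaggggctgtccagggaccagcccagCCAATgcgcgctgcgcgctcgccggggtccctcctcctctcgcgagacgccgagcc
Slc25a25 (chr2:32424067-32424316, minus strand): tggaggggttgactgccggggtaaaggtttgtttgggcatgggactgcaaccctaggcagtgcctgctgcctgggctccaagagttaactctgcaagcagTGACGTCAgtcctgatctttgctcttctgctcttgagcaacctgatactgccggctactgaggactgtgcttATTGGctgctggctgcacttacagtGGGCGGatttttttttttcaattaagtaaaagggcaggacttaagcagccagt
Slc25a33 (chr4:149774268-149774517, minus strand): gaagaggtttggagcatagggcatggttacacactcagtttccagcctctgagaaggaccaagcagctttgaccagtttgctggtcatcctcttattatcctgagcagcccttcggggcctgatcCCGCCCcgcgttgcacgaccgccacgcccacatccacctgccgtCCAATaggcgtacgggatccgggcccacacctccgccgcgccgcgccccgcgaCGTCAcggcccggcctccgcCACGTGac
Slc25a45 (chr19:5877572-5877821, plus strand): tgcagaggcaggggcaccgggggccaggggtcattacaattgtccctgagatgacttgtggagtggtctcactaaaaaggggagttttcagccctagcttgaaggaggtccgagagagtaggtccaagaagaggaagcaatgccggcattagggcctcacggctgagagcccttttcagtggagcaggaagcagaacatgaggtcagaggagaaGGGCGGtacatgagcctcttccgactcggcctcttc

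These windows differed in the letters they held. The Slc25a25 window had the full CRE at -150 to -143, a GC box and a CCAAT box. The Slc25a33 window had an E-box at -8 to -3, a CRE half-site at -28 to -24, a GC box and a CCAAT box. Slc25a4 had a CCAAT box at -112 to -108 and another at -56 to -52, and Slc25a45 had a GC box at -36 to -31 alone. Over 32851 windows of 27025 genes, the full CRE was in 1.55%, the CRE half-site in 17.8%, the GC box in 32.7%, the E-box in 6.02% and the CCAAT box in 33.9%. Among 45 windows of 36 members, 2 had the full CRE, 12 the half-site, 32 the GC box, 8 the E-box and 20 the CCAAT box. The TATA box was in 1 member window (12.4% of all windows), and the NRF-1, ERR, DR1 and glucocorticoid letters were in none of them (0.78%, 0.39%, 0.03% and 0.39% of all windows). Such matches describe letters only, and the arrays do not tell which start was used.

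The firmness of the 5 calls differed. Over 21 alternative settings, Slc25a45 was called in 19, Slc25a4 and Slc25a44 in 15 each, Slc25a33 in 12 and Slc25a25 in 9, and none of the 5 changed sign. Without both Mir137+/+ arrays that show Xist, 1 Mir137+/+ array remained, and no carrier was called. The differences then were 0.75 for Slc25a4, 0.64 for Slc25a25, 0.64 for Slc25a33, -0.64 for Slc25a44 and -0.68 for Slc25a45. Without the arrays with pancreas transcripts they were 0.74 for Slc25a4, 0.44 for Slc25a25, 0.56 for Slc25a33, -0.80 for Slc25a44 and -0.705 for Slc25a45, and Slc25a45 alone was called (adjusted p = 0.0383).

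**Figure D5:**
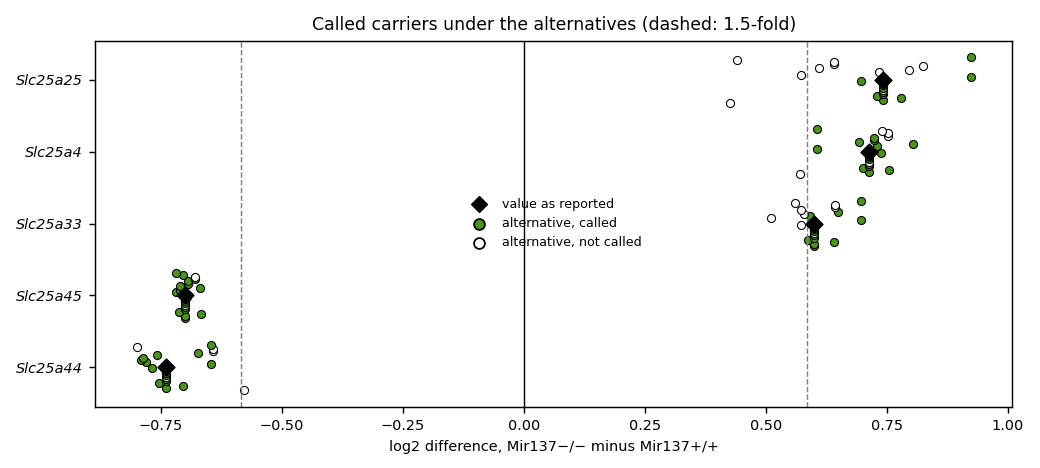
Log2 difference between Mir137-/- and Mir137+/+ livers (x axis) of the 5 called carriers (y axis) as reported (diamonds) and under the alternatives (circles, filled where called). Dashed lines mark 1.5-fold. Slc25a25 spreads widest, from 0.43 to 0.92, and Slc25a45 least, from -0.72 to -0.67.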

How the data were processed

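Liver RNA of Mir137-/- and Mir137+/+ mice was measured on 3 Affymetrix whole-genome mouse arrays per genotype. Groups were taken from the genotype labels. The authors deposited log2 probe set summaries, with values from 1.22 to 13.79 and array medians near 4.9. The methods name RMA with baseline-to-mean normalization, while the labels give GCRMA and no version, so the summary method is unsettled. The values were used as deposited, and no detection calls or scanner files were used. Low signals therefore had no stated floor, and summaries of this kind compress small intensities. The number of arrays limits the precision, and the smallest two-sided exact p for 3 against 3 is 0.1.

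Control probe sets (64) were not used. Of 45037 probe sets, 34945 had 1 gene symbol in the platform annotation, 932 had several and 9160 had none, and 34741 matched the GRCm38 gene table by Entrez identifier. Each of 18193 genes was read from its brightest probe set, by the mean of all 6 arrays. A probe set shared by Slc25a37 and a second symbol was left out, and Slc25a21, Slc25a43 and Ucp2, which had no probe set under that symbol alone, were not analysed here. Genes were tested with limma 3.58.1 in R 4.3.3 (lmFit and eBayes, contrast Mir137-/- minus Mir137+/+, no covariate, two-sided, Benjamini-Hochberg over all genes or all probe sets). A call needed an adjusted p below 0.05 and a change of more than 1.5-fold. The fit was tested on simulated data. Log2 ratios of carrier pairs were compared with exact permutation tests.

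The members, roles, partner lists and markers were chosen with earlier results of these data known. Values per array are given for called members, for members past the adjusted p, and for a set of liver carriers and uncoupling proteins. Partner lists are given by their called genes and their brightest gene. Others are marked as named after their values were seen, as were Hemgn, Slc4a1, Rhag, Cox7a1, Cidea, Dio2 and Zic1 among the markers. Alternatives were array weights (statmod 1.5.0), another normalization, other probe set choices, thresholds and tests, a filter on the dimmest 40% of genes, sex read from Xist, the replicate number as a block, and arrays left out. Their use on the partner lists was added after the data were seen.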

Additional observations from a re-analysis of the deposited data

How the results depend on the processing

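Of the 3 carriers called higher and 2 called lower, 1 and 1 were called when a gene's probe sets were averaged, 0 and 0 with treat against 1.5-fold, 0 and 1 with the methods' t-test after Benjamini-Hochberg adjustment (3 and 2 without adjustment), 0 and 1 with a sex term taken from Xist, 0 and 0 without the arrays that show Xist, and 0 and 1 without the arrays with pancreas transcripts. With sex as a term, and without the Xist arrays, each difference sets the 3 Mir137-/- arrays against Mir137+/+ replicate 1, a lone array assumed to vary like the others. Leaving out 1 array in turn gave 1 to 3 higher calls (1 when Mir137-/- replicate 2 or either of Mir137+/+ replicates 1 and 3 was left out) and 2 to 3 lower calls. The replicate block gave 2 and 2, because Slc25a25 was lost (adjusted p = 0.0819), and over all genes 411 higher and 588 lower calls against 425 and 607. The numbers are not known to pair the mice: deviations of equal numbers correlated at 0.10, 0.23 and 0.03, and Mir137-/- replicate 3 correlated best with Mir137+/+ replicate 1. The carriers' median of 0.005 was -0.0133 without the dimmest 40% of genes (36 members left), -0.015 without the array with muscle transcripts, and -0.015 to 0.0542 over the fits without 1 array. The 7 calls in the partner lists became 14 with no fold threshold, 0 with treat, 4 with the methods' t-test after adjustment, 3 with sex as a term and 0 without the Xist arrays. Over all genes, 54 higher and 73 lower calls were left without the Xist arrays, 184 and 259 with sex as a term, 228 and 390 without the pancreas arrays, 49 and 90 with treat, 921 and 1256 with no fold threshold, and 182 and 284 with the methods' t-test after adjustment. Some differences of genes that were not called changed sign. When probe sets were averaged, Slc25a32 was -0.19 and Slc25a48 -0.11. Slc25a13 was -0.0167, Slc25a20 0.0033 and Slc25a32 -0.0367 both with sex as a term and without the Xist arrays. Ucp1 was -0.12 without the array with muscle transcripts (-0.12 to 0.60 over the fits without 1 array), and Slc25a10 was 0.0183 without Mir137+/+ replicate 1 (-0.0883 to 0.0183 over those fits). The cause was not tested in any of these. Quantile normalization, median centring, trend and robust eBayes and the filter on dim genes kept 3 higher and 2 lower calls. Signal limits the dim members, of which 10 lay below the array median.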
